A study of Mus musculus with 8 samples.

Results

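Transcripts of ADAM sheddases and of TIMP metalloprotease inhibitors were followed in regulatory T cells sorted by the level of a Bach2 reporter. The set held 8 genes of the 36811 gene models in the deposited table: the 6 sheddases Adam8, Adam9, Adam10, Adam15, Adam17 and Adam19, and the 2 inhibitors Timp1 and Timp2, found by matching the Ensembl identifiers to these symbols. All 8 libraries came from spleens of C57BL/6 mice aged 12 to 13 weeks that carried Foxp3EGFP-DTR and Bach2tdRFP/+, so that the Foxp3 reporter, and a red reporter on 1 Bach2 allele, were common to both groups and no wild-type comparison was part of the design. CD4 cells were enriched, Foxp3-GFP positive cells were sorted as Bach2-RFP HI or Bach2-RFP LO, and RNA of sorted populations was sequenced after SmartSeq2 library preparation on an Illumina HiSeq (4 HI and 4 LO libraries; 2 female labels, F1 and F2, and 2 male labels, M1 and M2, in each group). The series title sets rTreg cells against aTreg cells (resting and activated); values are FPKM, fragment counts scaled for transcript length and library size, from the authors' Cuffnorm table. Whether each library is a different animal is not in the labels, and the p-values therefore reflect spread among libraries, which may be technical.

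ADAM proteases are membrane-anchored metalloproteases that cut the extracellular part off other membrane proteins, a process called ectodomain shedding. ADAM10 and ADAM17 are the main sheddases of lymphocytes: they release TNF and its receptors, the IL-6 receptor and Notch. TIMPs are small secreted proteins that block the active site of matrix metalloproteases and of some ADAMs. A transcript level does not report on protease activity, since ADAMs are made as inactive precursors and are also regulated after translation.

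The genes that define the sort were measured first. Bach2 was between 8.62 and 20.7 FPKM in HI and between 0.447 and 0.894 FPKM in LO. Foxp3 lay between 13.3 and 15.2 FPKM in HI and between 10.5 and 19.8 FPKM in LO, and Cd4 was above 0 in every library. FPKM values keep no read total, but the smallest steps of low values gave relative depths from 0.636 (HI M1, the shallowest) to 5.27 (LO M2, the deepest), with HI F1 set to 1. Library pairs of the same group had Spearman correlations of 0.893 to 0.931, and pairs from different groups 0.848 to 0.894. Of all 11260 genes tested, limma called 934 (8.29%) at an adjusted p below 0.05, 524 (4.65%) higher and 410 (3.64%) lower in LO.

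Promoter windows are shown for Adam8, the member with the largest difference, for Adam10, an abundant member that was not called, and for Adam19, the only member with a match to a motif searched. They were taken from RefSeq on build GRCm38.p6 and run from 250 bases before to 50 bases after an annotated gene start; 9 windows were found for 7 of the 8 members, and Adam9 had none. The deposited values were made on NCBIM37 or mm9, so these coordinates were not used with them. In the Adam8 and Adam10 windows the capitals mark CG dinucleotides, and in the Adam19 window they mark the motif TGANTCA, which covers the AP-1 element that Jun/Fos and BACH proteins can bind and which was searched on both strands and reads the same on each.
Adam8: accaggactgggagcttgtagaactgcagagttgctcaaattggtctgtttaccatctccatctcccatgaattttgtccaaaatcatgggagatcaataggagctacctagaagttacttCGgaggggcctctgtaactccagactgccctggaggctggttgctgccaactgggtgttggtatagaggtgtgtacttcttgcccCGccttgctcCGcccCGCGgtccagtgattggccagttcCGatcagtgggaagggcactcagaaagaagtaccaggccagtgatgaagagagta
Adam10: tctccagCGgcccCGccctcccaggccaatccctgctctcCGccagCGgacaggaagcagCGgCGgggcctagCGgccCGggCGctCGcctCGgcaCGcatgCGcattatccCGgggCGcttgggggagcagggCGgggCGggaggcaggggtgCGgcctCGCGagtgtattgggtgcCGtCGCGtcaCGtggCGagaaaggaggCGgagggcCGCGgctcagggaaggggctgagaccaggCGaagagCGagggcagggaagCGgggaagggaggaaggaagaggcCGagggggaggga
Adam19: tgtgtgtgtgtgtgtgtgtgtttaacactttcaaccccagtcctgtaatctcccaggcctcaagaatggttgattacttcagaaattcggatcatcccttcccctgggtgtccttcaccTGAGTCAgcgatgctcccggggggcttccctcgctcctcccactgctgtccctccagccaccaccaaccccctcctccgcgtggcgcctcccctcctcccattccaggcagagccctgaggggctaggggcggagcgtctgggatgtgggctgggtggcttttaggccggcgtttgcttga
The Adam8 window lies at chr7:139992513-139992812 on the minus strand and holds 6 CG dinucleotides at 52.3% G and C, near the median of all windows in the table (7 CG, quartiles 3 and 20; 52.7% G and C). The Adam10 window, chr9:70678732-70679031 on the plus strand, holds 32 CG at 73.3% G and C. The Adam17 window, on chromosome 12 from 21373583 to 21373882 on the minus strand, has 30 CG at 70% G and C, and those of Adam15 and Timp2 have 25 each. The Adam19 sequence is the middle of 3 Adam19 windows, chr11:46055734-46056033 on the plus strand, with 11 CG and the motif 131 bases before the start. The motif was in 2565 of all 32851 windows (7.81%) and in 1 of the 9 member windows, and not in that of Adam8. A match is a run of letters and does not show that a factor binds there.

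Adam8, a sheddase made by leukocytes, rose in LO from a level at or near 0 in HI. It was listed at 0 in HI F2, HI M1 and HI M2 and at 0.421 FPKM in HI F1, against 19.0, 14.7, 33.4 and 55.2 FPKM in LO F1, LO F2, LO M1 and LO M2 (ENSMUSG00000025473, chromosome 7). Every LO library was far above every HI library, and within LO the male libraries were above the female ones. The difference of LO from HI was 4.68 on the log2(FPKM + 1) scale (SE 0.424, 95% interval 3.73 to 5.62, limma adjusted p = 0.000297), which understates the change of a gene near 0 in one group; no fold is given since 3 HI libraries are at 0. A gene was tested if 4 or more libraries reached 1 FPKM, and Adam8 met this only through LO. All 4 LO libraries were above all 4 HI libraries in 890 of the 11260 genes tested (7.9%), Adam8 among them. In a bulk sample, fewer cells with the transcript and less RNA per cell cannot be told apart.

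A 0 in a Cuffnorm table need not mean that a transcript is absent: mt-Co2, which every cell uses, was at 0 in LO F2. In the other libraries mt-Co2 was also low, at 4.22 to 15.1 FPKM, and the source of its 0 was not tested. The Adam8 locus is overlapped on the opposite strand by Gm16201 in the annotation, which lay between 0 and 4.55 FPKM and did not follow the groups. ADAM8 is also made by myeloid cells and B cells, and markers of these cells were measured beside it. The myeloid list (13 genes, 12 tested) summed to 588 to 865 FPKM in HI and 443 to 824 FPKM in LO, with 3 genes lower and 0 higher in LO. The B cell list (9 genes, 7 tested) summed to 149 to 262 FPKM in HI and 77 to 101 FPKM in LO, with 4 genes lower. Neither list had a gene at 0 in all libraries. The myeloid sums overlapped between the groups and the B cell sums did not. The NK and CD8 T cell list (7 genes, 4 tested) summed to 96.6 to 159 FPKM in HI and 176 to 314 FPKM in LO, where Nkg7 was called higher and Eomes lower (log2 -1.89, limma adjusted p = 0.0183). Eomes entered the test only through HI, and its call was lost under 3 of 17 alternatives. In Cd8b1 of that list every HI library was above every LO library (log2 -0.55, adjusted p = 0.119). Plasma cell markers (5 genes) summed to 121 to 147 FPKM in HI and 159 to 253 FPKM in LO. Jchain alone of these was called, with means of 10.8 FPKM in HI and 89 FPKM in LO (log2 2.96, limma adjusted p = 0.00555). The means of Sdc1 and Tnfrsf17 were higher in LO, and those of Xbp1 and Mzb1 lower. Plasmacytoid dendritic cell markers (6 genes) summed to 357 to 510 FPKM in HI and 142 to 257 FPKM in LO, with 4 genes lower and 0 higher. The HI and LO means were 132 and 10.4 FPKM for Ly6d, 23.7 and 0.541 for Siglech, 20 and 0.671 for Klk1, and 15.8 and 3.02 for Ccr9. Siglech and Klk1 entered the test only through HI. Bst2, which was not called, had means of 215 and 177 FPKM and is in both sums. Over all genes tested, 4.65% were higher and 3.64% lower in LO. Erythroid and platelet markers (9 genes, Ppbp at 0 throughout) summed to 45 to 242 FPKM in HI and 14.1 to 439 FPKM in LO. The part of any of these cell types in the Adam8 result was not tested.

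**Figure D1:**
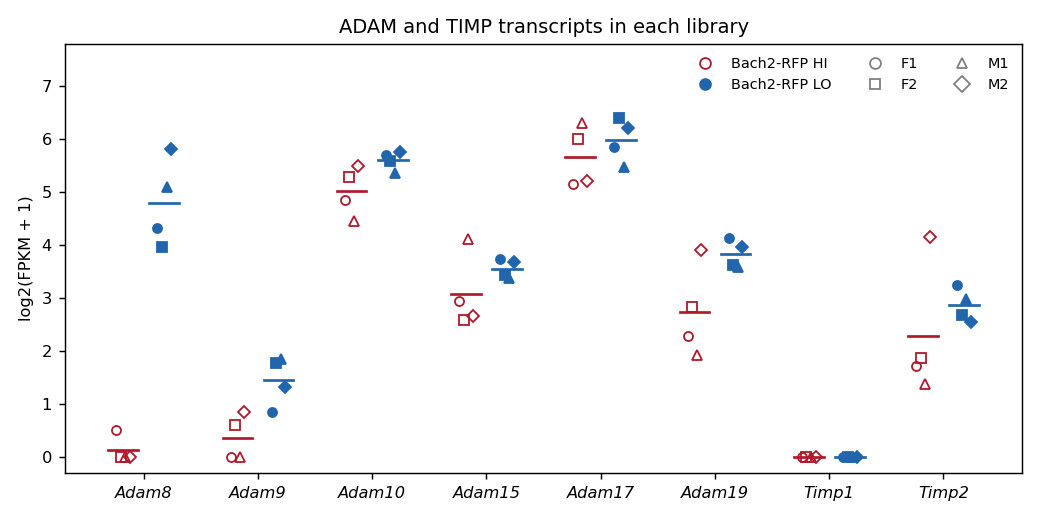
Level of each member, as log2(FPKM + 1), in each of the 8 libraries; open symbols are HI, filled symbols LO, and the shape gives the label. Adam8 is at or near 0 in HI and between 14.7 and 55.2 FPKM in LO, whereas the groups overlap for Adam10, Adam15, Adam17, Adam19 and Timp2.

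Adam10 and Adam17, the main lymphocyte sheddases, were the most abundant members in both groups and did not pass the test. Adam10 (ENSMUSG00000054693, chromosome 9) was at 27.9, 37.9, 21.1 and 44.3 FPKM in HI F1, F2, M1 and M2 and at 51.1, 46.9, 40.0 and 53.4 FPKM in LO F1, F2, M1 and M2. Only HI M2 reached into the LO range, so the groups overlapped by 1 library. The means were 32.8 ± 10.3 and 47.8 ± 5.88 FPKM (SD, n = 4 each), a ratio of 1.46 and a log2 difference of 0.58 (SE 0.245, 95% interval 0.03 to 1.12, limma adjusted p = 0.212). Adam17 (ENSMUSG00000052593, chromosome 12), the TNF-converting enzyme, was at 34.7, 63.0, 78.7 and 36.3 FPKM in HI F1, F2, M1 and M2 and at 57.0, 84.1, 43.6 and 72.9 FPKM in LO F1, F2, M1 and M2. The 2 groups covered nearly the same range, and HI M1 was above 3 of the LO libraries. The means of 53.2 ± 21.4 and 64.4 ± 17.8 FPKM (SD, n = 4 each) differed by 0.32 on the log2 scale (SE 0.309, 95% interval -0.38 to 1.01, limma adjusted p = 0.629). Adam17 overlaps Iah1 on the opposite strand in the annotation (52.4 to 87.5 FPKM), and whether the authors' counting used strand is not given, so reads of the 2 genes cannot be told apart.

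Adam15 and Adam19, ADAMs with adhesion and shedding roles, were at intermediate levels. Adam15 (ENSMUSG00000028041, chromosome 3) was at 6.71, 5.03, 16.4 and 5.37 FPKM in HI F1, F2, M1 and M2 and at 12.3, 9.81, 9.46 and 11.8 FPKM in LO F1, F2, M1 and M2. HI M1 stood above all other libraries, and the other 3 HI libraries were below every LO library. The means were 8.37 ± 5.38 and 10.8 ± 1.40 FPKM (SD, n = 4 each; log2 0.47, SE 0.362, 95% interval -0.33 to 1.28, limma adjusted p = 0.519; without HI M1, log2 0.82, adjusted p = 0.125). HI M1 was the HI library with the highest sum of the myeloid, B cell and NK and CD8 marker lists, whose part in this value was not tested. Adam19 (ENSMUSG00000011256, chromosome 11), also called meltrin beta, was at 3.87, 6.08, 2.81 and 14.1 FPKM in HI F1, F2, M1 and M2 and at 16.6, 11.3, 11.0 and 14.7 FPKM in LO F1, F2, M1 and M2. HI M2 lay inside the LO range and the other 3 HI libraries lay below it. The means of 6.73 ± 5.13 and 13.4 ± 2.68 FPKM (SD, n = 4 each; ratio 1.99) differed by 1.09 on the log2 scale (SE 0.421, 95% interval 0.15 to 2.03, limma adjusted p = 0.17). Without HI M2 the difference was 1.48 and passed the test (adjusted p = 0.0305). Adam19 is overlapped by the antisense models Gm16033 (0 to 9.06 FPKM) and Gm16034 (0 to 12.8 FPKM), which cannot be told apart from it without strand.

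Adam9 (ENSMUSG00000031555, chromosome 8), a widely made ADAM also called meltrin gamma, was barely detected. It was at 0, 0.516, 0 and 0.803 FPKM in HI F1, F2, M1 and M2 and at 0.803, 2.41, 2.63 and 1.49 FPKM in LO F1, F2, M1 and M2. The lowest LO value equalled the highest HI value, and only 3 libraries reached 1 FPKM, so Adam9 was not tested. Multiplied by the relative depth, these values were 0, 1, 0 and 1 times the smallest step in HI, and 1, 3, 4 and 12 times it in LO. All were within 0.02 of a whole multiple. The step is the smallest Adam9 value above 0 on this scale, and whether it is 1 fragment was not tested. The fit with no filter on low values, over 16165 genes, gave a log2 difference of 1.09 (SE 0.333, limma adjusted p = 0.128).

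The 2 inhibitors differed in detection, and neither was called. Timp1, a secreted inhibitor of matrix metalloproteases and of ADAM10 (ENSMUSG00000001131, chromosome X), was listed at 0 in all 8 libraries, as were 20646 of the 36811 gene models (56.1%) and 7351 of the 20149 protein-coding models (36.5%). Timp2 (ENSMUSG00000017466, chromosome 11), an inhibitor that also takes part in the activation of MMP2 by MMP14, was at 2.31, 2.67, 1.60 and 16.9 FPKM in HI F1, F2, M1 and M2 and at 8.46, 5.40, 6.93 and 4.82 FPKM in LO F1, F2, M1 and M2. HI M2 stood above every other library, and the other 3 HI libraries lay below every LO library. The means were 5.88 ± 7.38 and 6.40 ± 1.63 FPKM (SD, n = 4 each; log2 0.58, SE 0.57, 95% interval -0.70 to 1.85, limma adjusted p = 0.632). Without HI M2 the difference was 1.20 (adjusted p = 0.0784). HI M2 was not the highest HI library in the sum of any of the 6 marker lists of other cell types. Single markers varied: it was the highest HI library for Csf1r (20 FPKM) and Cd68 (34.1 FPKM), but not for Lyz2 or S100a8. The part of other cells in the HI M2 values was not tested. Of the 5 members above 0 in every HI library, HI M2 was the highest for Adam10, Adam19 and Timp2.

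Of the 8 members, 6 were tested, 1 was higher in LO and 0 were lower, beside 4.65% and 3.64% of all genes tested. By limma without adjustment, 3 were higher at p below 0.05 (Adam8, Adam10 and Adam19) and 0 were lower. Of all 11260 genes tested, 2354 were below 0.05 without adjustment, counting both directions. The median log2 difference of the 6 was 0.58, against -0.03 over all genes tested, and 48% of all genes tested were above 0. Since Adam8 entered the test only through LO, this median supports no statement on the set as a whole.

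**Figure D2:**
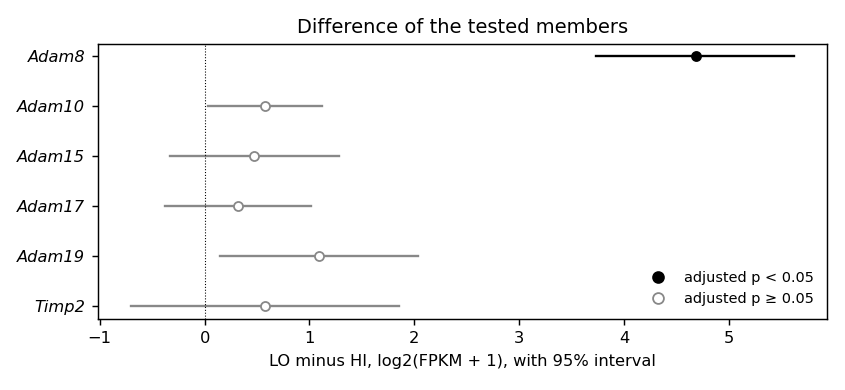
Difference of LO from HI on the log2(FPKM + 1) scale for the 6 members tested, with 95% intervals; filled points passed an adjusted p of 0.05. Adam8 is at 4.68 with an interval of 3.73 to 5.62, and the intervals of Adam15, Adam17 and Timp2 include 0.

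Levels were compared between genes as FPKM, which is per transcript length. In HI, the means ran from Adam17 (53.2 FPKM) through Adam10 (32.8), Adam15 (8.37), Adam19 (6.73), Timp2 (5.88), Adam9 (0.33) and Adam8 (0.105) to Timp1 (0). Adam10 and Adam15 were apart, as were Timp2 and Adam9; the other neighbours overlapped in their ranges, and Adam17 was above Adam10 in 3 of 4 HI libraries. In LO, the order was Adam17 (64.4 FPKM), Adam10 (47.8), Adam8 (30.6), Adam19 (13.4), Adam15 (10.8), Timp2 (6.4), Adam9 (1.83) and Timp1 (0). Adam8, last of the ADAM genes in HI, stood between Adam10 and Adam19 in LO, with a range that overlapped both.

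Adam8 was between 8.66% and 26.4% of the summed ADAM level in LO. The 6 ADAM genes summed to 73.5, 113, 119 and 101 FPKM in HI F1, F2, M1 and M2 and to 157, 169, 140 and 209 FPKM in LO F1, F2, M1 and M2. Every LO library was above every HI library. Without Adam8 the sums were 73.1, 113, 119 and 101 FPKM in HI and 138, 155, 107 and 154 FPKM in LO, and LO M1 lay inside the HI range. Adam8 was 0.572% of the sum in HI F1 and 0% in the other HI libraries, against 12.1%, 8.66%, 23.8% and 26.4% in LO. The share of Adam10 and Adam17 together was 85%, 89.7%, 83.9% and 79.9% in HI and 68.9%, 77.4%, 59.7% and 60.3% in LO. The ratio of Adam17 to Adam10 was 1.24, 1.67, 3.72 and 0.82 in HI and 1.12, 1.79, 1.09 and 1.36 in LO, and HI M1 had the highest ratio.

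**Figure D3:**
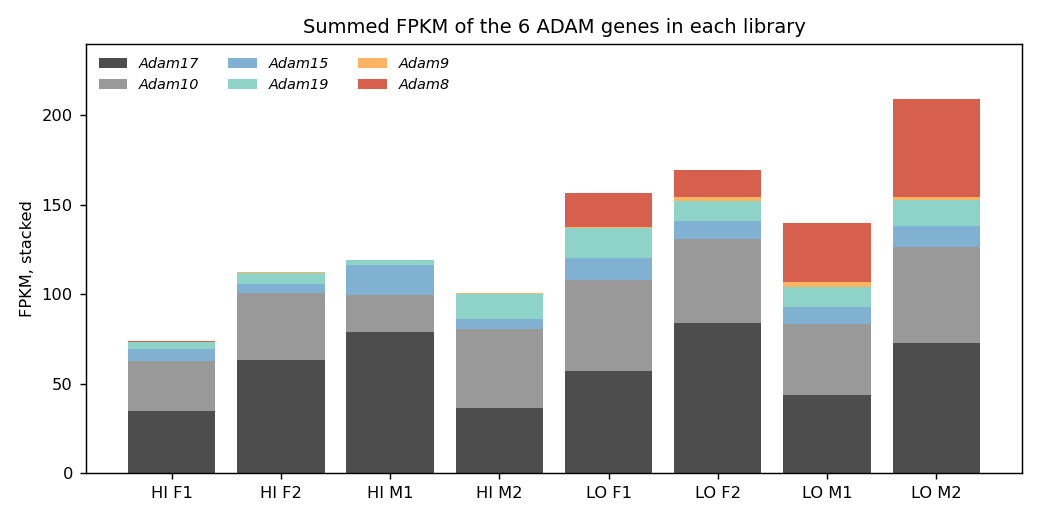
Summed FPKM of the 6 ADAM genes in each library, stacked by gene. The LO sums of 140 to 209 FPKM are all above the HI sums of 73.5 to 119 FPKM, and Adam8 is visible only in the LO bars.

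Sex was compared in a separate fit on the means of the 4 labels, and its interaction with the reporter in a fit of the 8 libraries. No member passed the test of female against male labels (limma adjusted p = 0.999 for all 6 tested), beside 2 genes or 0.0178% called over all genes. Before adjustment 0 members were below 0.05, beside 377 of all 11260 genes tested. Adam8 was -0.53 (female minus male, log2, SE 0.384), Timp2 -0.39, Adam15 -0.29, Adam19 -0.14, Adam10 0.08 and Adam17 0.05. The sex by reporter interaction, also called in 2 genes (0.0178%), was -1.57 for Adam8 (SE 0.672, 95% interval -3.12 to -0.01, limma adjusted p = 0.999). In LO, the males were at 33.4 and 55.2 FPKM and the females at 19.0 and 14.7 FPKM. The LO males were above the LO females, a difference that did not pass after adjustment with 2 libraries per sex and group.

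The genes most like Adam8 over the 8 libraries, by Pearson correlation of log2(FPKM + 1), were Mfsd10 (0.988), Cyfip1 (0.987) and Gzmk (0.984). These are correlations over libraries that fall into the 2 sorted groups, and no p is given. Mfsd10, a membrane transporter, was at 49.9, 41.1, 41.7 and 53.8 FPKM in HI F1, F2, M1 and M2 and at 114, 126, 154 and 177 FPKM in LO (log2 1.58, limma adjusted p = 0.000919). Cyfip1, an actin regulator of the WAVE complex, was at 17.8, 18.8, 17.5 and 20.8 FPKM in HI and 47.3, 49.2, 52.2 and 70.9 FPKM in LO (log2 1.49, limma adjusted p = 0.00141). Gzmk, a granzyme, was at 0 in every HI library and at 2.12, 1.76, 1.73 and 2.46 FPKM in LO (log2 1.59, limma adjusted p = 0.0115), and entered the test only through LO. All 3 had every LO library above every HI library. A choice by correlation with Adam8 favours such genes, so this separation and these p-values are no separate evidence.

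Transcripts of the proteins that ADAMs cut moved in both directions. Of 30 substrate genes, 25 were tested; 8 rose and 2 fell in LO and 15 did not pass, beside 4.65% and 3.64% over all genes, and the median log2 difference was 0.49. The list was chosen with earlier results of these data known and is not independent evidence of a direction. Il6ra, the IL-6 receptor chain that ADAM10 and ADAM17 release, was at 114, 134, 95.5 and 111 FPKM in HI F1, F2, M1 and M2 and at 65, 59.4, 62.3 and 49 FPKM in LO. Every HI library was above every LO library. It fell from 114 ± 15.8 to 58.9 ± 6.97 FPKM (SD, n = 4 each; 1.93-fold higher in HI; log2 -0.93, SE 0.165, limma adjusted p = 0.00676). Fcer2a, the CD23 of B cells, was at 21.8, 11.8, 20.5 and 7.98 FPKM in HI and at 0, 6.00, 0.918 and 0.621 FPKM in LO (log2 -2.83, adjusted p = 0.0157); it is also in the B cell list, whose sums are given above, and without the shallowest and the deepest library its adjusted p was 0.103.

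Receptors and adhesion molecules that ADAM17 and ADAM10 release were among those that rose. Icam1, an adhesion molecule, rose from 34.8 ± 6.51 to 100 ± 9.50 FPKM (SD, n = 4; 2.88-fold, log2 1.51, SE 0.179, limma adjusted p = 0.00097). Havcr2, TIM-3, was at 0.512, 0.402, 0 and 0 FPKM in HI and at 10.5, 7.51, 5.21 and 10.4 FPKM in LO (log2 2.92, adjusted p = 0.000994), and entered the test only through LO. Il1r2, the decoy IL-1 receptor, rose from 6.68 ± 4.10 to 52.0 ± 13.8 FPKM (SD, n = 4; 7.78-fold, log2 2.92, adjusted p = 0.002). Tnfrsf1b, TNF receptor 2, rose from 86.1 ± 8.41 to 246 ± 90.3 FPKM (SD, n = 4; 2.86-fold, log2 1.44, adjusted p = 0.00497). Aplp2, an amyloid precursor relative, rose from 68.5 ± 14.6 to 142 ± 27.4 FPKM (SD, n = 4; log2 1.05, adjusted p = 0.0115, 0.0614 without the shallowest and the deepest library). All 5 had every LO library above every HI library, as had 10 of the 25 substrates tested and 890 of all 11260 genes tested (7.9%). Icam1, Havcr2, Il1r2 and Tnfrsf1b were named for a small p, a choice that favours such genes. Their separation is no separate evidence. Aplp2 was named for its level.

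The remaining called substrates were chosen for naming after their values were seen, as were those that did not pass, other than Sema4d. Tnfsf11, RANKL, rose from 12.7 ± 3.82 to 31.8 ± 5.90 FPKM (SD, n = 4; log2 1.29, limma adjusted p = 0.0164). Tnfrsf8, CD30, rose from 5.07 ± 0.777 to 13.5 ± 3.69 FPKM (SD, n = 4; log2 1.23, adjusted p = 0.0248). Its call was lost without HI F1, HI F2, HI M2, LO F1, LO F2 or LO M2 in turn (adjusted p 0.0526 to 0.0714). Cd44, which ADAM10 cuts, rose from 54.3 ± 15.1 to 149 ± 63.7 FPKM (SD, n = 4; log2 1.37, adjusted p = 0.0396). Its call was lost without any 1 library other than LO M1 (adjusted p 0.062 to 0.11). Those that did not pass included the classical ligands and receptors of this biology. Tnf was 6.83 ± 2.07 and 12.6 ± 3.22 FPKM (SD, n = 4; adjusted p = 0.171). Areg, a growth factor of tissue repair, was at 1.20, 1.88, 0 and 0 FPKM in HI and 30.7, 4.38, 2.39 and 6.58 FPKM in LO (adjusted p = 0.0669; 0.0465 without LO M1). Sema4d, a semaphorin, was 87.0 ± 8.72 and 123 ± 13.9 FPKM (SD, n = 4; adjusted p = 0.0816). Lag3 was 37.9 ± 19.5 and 52.7 ± 21.7 FPKM (SD, n = 4; adjusted p = 0.502), and Notch1 was 24.7 ± 8.15 and 20.8 ± 5.62 FPKM (SD, n = 4; adjusted p = 0.768). Tnfrsf1a, TNF receptor 1, was 64.4 ± 49.6 and 43.0 ± 18.9 FPKM (SD, n = 4; adjusted p = 0.703), with HI M1 at 137 FPKM.

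**Figure D4:**
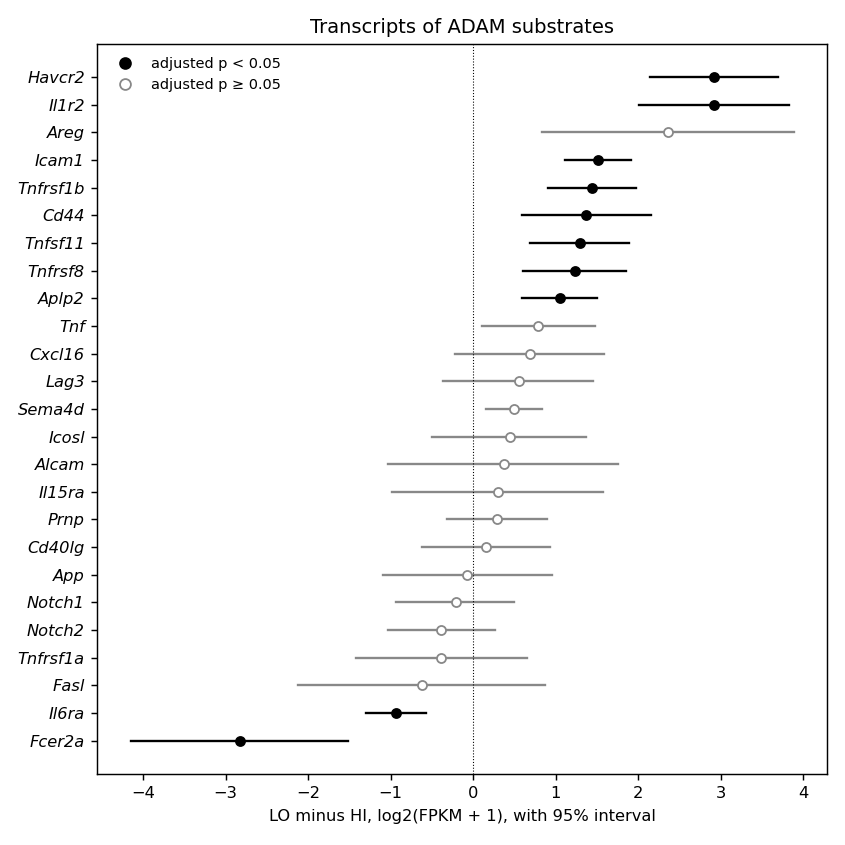
Difference of LO from HI, log2(FPKM + 1), with 95% intervals, for the 25 substrate genes tested; filled points passed an adjusted p of 0.05. Fcer2a and Il6ra lie left of 0, at -2.83 and -0.93, while Il1r2 and Havcr2 lie right of it, both at 2.92.

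The factors that carry ADAM10 and ADAM17 to the surface were not called in either direction. Of 16 genes, 9 were tested and 0 passed with limma, beside 4.65% higher and 3.64% lower over all genes. At an unadjusted p below 0.05 there was 1, Tspan17, beside 2354 of all 11260 genes tested. The median log2 difference was -0.02. With 9 genes tested, these counts support nothing particular about the list. Frmd8, which stabilises the iRhom carriers of ADAM17, was 189 ± 54.0 and 144 ± 32.9 FPKM (SD, n = 4; limma adjusted p = 0.454). Pdia6, a protein disulfide isomerase, was 157 ± 9.09 and 176 ± 60.4 FPKM (SD, n = 4; adjusted p = 0.824), and Tspan14, a tetraspanin that carries ADAM10, was 57.0 ± 8.46 and 56.2 ± 7.95 FPKM (SD, n = 4; adjusted p = 0.97). Rhbdf2, iRhom2, chosen after its values were seen, was 8.92 ± 4.75 and 9.96 ± 3.04 FPKM (SD, n = 4; adjusted p = 0.795). Tspan17, likewise, was at 10.3, 4.16, 0 and 12.8 FPKM in HI and at 72.4, 28.2, 28.8 and 18 FPKM in LO. The groups did not overlap, but the log2 difference of 2.64 had an adjusted p of 0.0702 (0.0495 without HI M2).

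Downstream of shedding, gamma-secretase cuts the remaining membrane stub. Of 6 subunit genes 4 were tested, and 1 rose and 0 fell, beside 4.65% and 3.64% over all genes. The counts were the same at an unadjusted limma p below 0.05, beside 2354 of all 11260 genes tested. Psen2, a catalytic subunit, rose from 96.1 ± 14.7 to 247 ± 40.4 FPKM (SD, n = 4, 2.57-fold, log2 1.35, SE 0.171, limma adjusted p = 0.00126). Every LO library was above every HI library, as in 7.9% of all genes tested. Ncstn, nicastrin, was 53.0 ± 8.55 and 66.5 ± 13.8 FPKM (SD, n = 4; adjusted p = 0.431), and Psenen was 84.9 ± 30.6 and 84.5 ± 23.3 FPKM (SD, n = 4; adjusted p = 0.987).

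Matrix metalloproteases, the secreted and membrane-bound proteases that TIMPs chiefly inhibit, held 3 genes that rose and 1 that fell of the 5 tested, out of 22 listed, beside 4.65% and 3.64% over all genes; 8 were at 0 in all libraries, Mmp2 among them. Mmp25 reached 1 FPKM in 0 HI and 4 LO libraries, Mmp14 in 1 and 4, and Mmp11 in 4 and 0. Each of these genes met the filter only through the group where it is high, and the count supports nothing about the list. Mmp9, a gelatinase, was at 2.01, 4.86, 7.16 and 2.94 FPKM in HI F1, F2, M1 and M2 and at 22.1, 50.1, 26.5 and 36.1 FPKM in LO. It rose from 4.24 ± 2.28 to 33.7 ± 12.4 FPKM (SD, n = 4; 7.94-fold, log2 2.76, SE 0.379, limma adjusted p = 0.00197). Mmp14, a membrane-bound protease, was at 0, 0.391, 0 and 1.22 FPKM in HI and at 4.26, 10.3, 3.98 and 7.93 FPKM in LO (log2 2.44, adjusted p = 0.00602, 0.052 without the shallowest and the deepest library). Mmp25, a GPI-anchored protease, was at 0, 0, 0.591 and 0 FPKM in HI and at 3.68, 2.76, 2.26 and 1.93 FPKM in LO (log2 1.68, adjusted p = 0.0151). Mmp11 was the one that fell, from 4.05, 27.8, 4.94 and 11.3 FPKM in HI to 0, 0, 0 and 0.142 FPKM in LO (log2 -3.30, adjusted p = 0.00423). Mmp24 was not called (adjusted p = 0.873). Neutrophils also make MMP9 and MMP25: their marker S100a8 was at 31.2, 29.5, 78.5 and 22.9 FPKM in HI and at 115, 45.8, 43.7 and 13 FPKM in LO, and S100a9 at 0, 18.1, 35.7 and 14.1 FPKM in HI and at 70.4, 4.59, 42.2 and 13.7 FPKM in LO. Both markers overlapped between the groups (limma adjusted p = 0.885 and 0.628). Itgam, CD11b, also made by neutrophils, was at 1.74, 0, 2.4 and 0 FPKM in HI and at 3.75, 1.87, 4.7 and 2.82 FPKM in LO (log2 1.25, limma adjusted p = 0.181). The part of neutrophils in the Mmp9 and Mmp25 results was not tested, and these 3 markers were chosen after their values were seen.

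Most other ADAM and ADAMTS genes were listed at 0. Of 39 further ADAM and ADAMTS genes, 25 were at 0 in all libraries, 2 were tested and 0 passed, beside 4.65% and 3.64% over all genes. Neither was below 0.05 by limma before adjustment, beside 2354 of all 11260 genes tested. Adamts10 was 4.05 ± 0.809 and 5.15 ± 1.57 FPKM (SD, n = 4, limma adjusted p = 0.709). Adamts6 had an adjusted p of 0.996. Adam23 was at 0, 0, 0.678 and 3.26 FPKM in HI and at 9.78, 0, 0.305 and 0.506 FPKM in LO and was not tested. Timp3, the TIMP that inhibits ADAM17, and Timp4 were at 0 in all libraries, and Reck, a membrane-anchored inhibitor, ranged from 1.97 to 10.9 FPKM in HI and 2.07 to 18.4 FPKM in LO (adjusted p = 0.809).

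**Figure D5:**
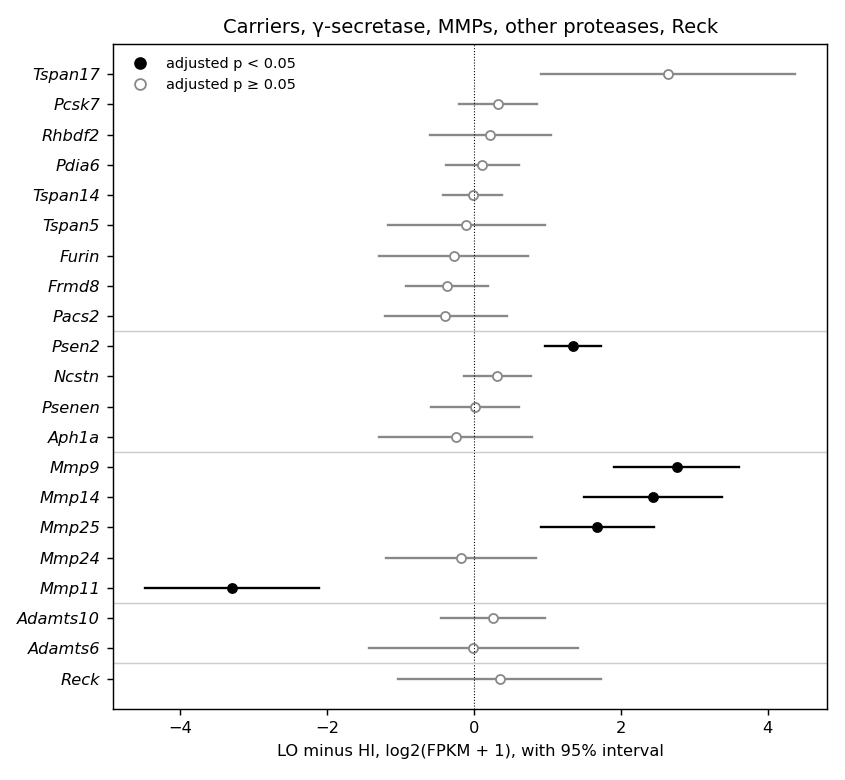
Difference of LO from HI, log2(FPKM + 1), with 95% intervals, for the tested carriers, gamma-secretase subunits, matrix metalloproteases, other proteases and Reck, from top to bottom, separated by lines. Filled points passed an adjusted p of 0.05: Psen2, Mmp9, Mmp14 and Mmp25 to the right of 0 and Mmp11 to the left.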

How the data were processed

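RNA of sorted spleen Treg cells was sequenced after SmartSeq2 preparation, per the labels' protocols, and each library was grouped by its title. The deposited values are FPKM, made by the authors with Cuffnorm, as the name of their table records. The submitters' processing notes list HISAT2, cutadapt and FastQC, and as builds mm9 and NCBIM37. For annotation and scaling, nothing was given in the sources used. The design text of the series describes another experiment.

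Values were used as log2(FPKM + 1). The 11260 genes that reached 1 FPKM in 4 or more libraries were fitted with limma 3.58.1 in R 4.3.3 with a trended prior, and p-values were adjusted by Benjamini-Hochberg over all of them, with a threshold of 0.05. Reporter level was tested between the groups, and sex was tested on the means of the 4 labels. Symbols came from a GENCODE annotation of another build (31840 of 36811 identifiers). Some genes of the lists are not reported here. The members and lists were chosen with earlier results of these data known. Named genes were the 8 members, up to 5 called genes per list by smallest p, the 3 with the highest mean, and the 3 tested genes most correlated with a called member. The fit was tested on simulated data. The main test did not pair the groups by label, and whether same-label libraries come from 1 animal is not given. Same-label correlations of deviations were 0.0149 to 0.113, against -0.0995 to 0.0583 between different labels. These values do not settle the pairing. Alternatives were the pseudocount, the filter, the scaling, the prior, sex, a replicate block, and leaving out libraries.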

Additional observations from a re-analysis of the deposited data

Results flagged for a closer look

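In 3 cases a library stood apart from the rest of its group. In each of 14 groups of 4 libraries (a member in HI or in LO), the gap of the most extreme library to its nearest neighbour was divided by the range and compared with Dixon's 95% critical value, which chance exceeds in about 1 in 20 groups. Adam8 in HI F1 was 0.421 FPKM with the other HI libraries at 0, a gap of 1 times the range. With 3 values tied at 0 any value above 0 gives this gap, so the rate of chance does not apply. This 0.421 FPKM is the lowest Adam8 value above 0. Adam15 in HI M1 was 16.4 FPKM (gap over range 0.851). Timp2 in HI M2 was 16.9 FPKM (0.93). HI M1 was also the lowest HI library for Adam10, Adam19 and Timp2, and HI M2 the highest for those 3 genes. The source of these values was not tested.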

How the results depend on the processing

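Over 18 alternatives the Adam8 difference was 4.30 to 7.48 with an adjusted p of 0.000254 to 0.00301 and kept its call. Adam10 was 0.34 to 0.73 (adjusted p 0.121 to 0.515), Adam15 0.31 to 0.82 (0.125 to 0.73), Adam17 0.14 to 0.53 (0.38 to 0.862), Adam19 0.77 to 1.48 (0.0305 to 0.429) and Timp2 0.27 to 1.20 (0.0784 to 0.855). Adam19 passed only without HI M2. The count of called genes was 642 to 975 against 934. The replicate block gave 771 genes and an adjusted p of 0.0513 for Mmp25, 0.0642 for Tnfrsf8 and 0.0497 for Areg; it rests on shared labels only, and same-label libraries did not each correlate best with one another. Areg also passed with sex as a covariate (0.037) and without LO M1 (0.0465). Substrates higher in LO numbered 5, against 8, and substrates lower in LO 1, against 2, without the shallowest and the deepest library. For sex, a pseudocount of 0.1 gave 1 called gene, and leaving out a label, with both its libraries, gave 2 to 6. The interaction count, 2, was 1 to 2 when 1 library was left out and 3 with a pseudocount of 0.1. Some differences near 0 changed sign, and the cause was not tested. Without the shallowest and the deepest library, Adamts6 was 0.07, Mmp24 0.20, Pdia6 -0.05, Tspan14 0.00 and Tnfrsf1a 0.07; Adamts6 was 0.10 with a pseudocount of 0.1 and 0.00 with upper quartile scaling, and Tspan14 was 0.00 with quantile normalization and 0.01 with upper quartile scaling. Leaving out 1 library in turn gave -0.44 to 0.43 for Adamts6, -0.43 to 0.07 for Mmp24, -0.09 to 0.25 for Pdia6, -0.09 to 0.08 for Tspan14, -0.71 to 0.06 for Tnfrsf1a, -0.15 to 0.74 for Reck, -0.14 to 0.24 for Psenen, -0.41 to 0.25 for Tspan5 and -0.59 to 0.04 for Furin. Cd44 and Tnfrsf8 lost their calls under 12 and 8 alternatives, with adjusted p up to 0.123 and 0.102. Depth is known only as a ratio between libraries, so no counting interval is given, and Adam9 and other genes of low values are read as values only.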
